A study of Homo sapiens with 12 samples.

Results

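The translation initiation and elongation factor genes were taken as the rows of the count table whose gene name starts with EIF1 to EIF6 or with EEF1 or EEF2. Names that start with EIF2AK, names with a hyphen and names that end in P plus digits were left out. The rule kept 58 of 50868 rows. Of these, 49 have names that start with EIF and are called initiation factors here by name alone. They include the eIF5A family, EIF4ENIF1 and EIF1AD. The others are 6 genes of the elongation factors eEF1 and eEF2, and 3 of proteins that modify or accompany elongation factors. It also drops the genes of the 4E-binding proteins (EIF4EBP1 to EIF4EBP3), because their names end in P plus digits, and these are described with the pathway genes further on. The counts are from RNA-seq of MG63, an osteosarcoma cell line long in culture, in 12 libraries that form 4 groups of 3. In the compound experiment the cells received 1 µM anticarin-β or vehicle for 18 hours. In the siRNA experiment they were transfected with an siRNA directed at CCT4, a subunit of the cytosolic chaperonin, or with Allstar control siRNA, and were collected after 2 days. All 4 groups were grown in the same medium. The design asks how gene expression changes with each of them.

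Translation starts when eIF2, loaded with GTP and the initiator tRNA, joins the small ribosomal subunit together with eIF1, eIF1A, eIF3 and eIF5. The cap-binding factor eIF4E, the scaffold eIF4G and the helicase eIF4A recruit the mRNA, and the complex scans to the start codon. eIF2B then reloads eIF2 with GTP, a step that is blocked when the alpha subunit of eIF2 is phosphorylated under stress. During elongation eEF1A delivers aminoacyl-tRNA, eEF1B reloads it with GTP, eEF2 moves the ribosome along, and eIF5A helps at slow peptide bonds. The mRNAs of many of these factors start with a run of pyrimidines, the 5′ terminal oligopyrimidine (TOP) motif, through which mTOR signalling is known to control their translation.

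Each library held between 13393750 and 17492095 counts. Whether replicates are separate cultures is not stated in the labels, and the p-values speak only to the scatter among these 12 libraries, part or all of which could be technical. CCT4 mRNA was at 201, 199.6 and 216 CPM in the libraries labelled CCT4 siRNA and at 186, 160.2 and 185 CPM with control siRNA (log2 fold change 0.22 ± 0.09 (SE), adjusted p = 0.129). The targeted mRNA was therefore not lower where the label names its siRNA, and each direction given below for that comparison belongs to the libraries labelled CCT4 siRNA. With anticarin-β, CCT4 was at 86.8, 87.5 and 72.5 CPM, against 258, 238 and 212 CPM with vehicle (−1.52 ± 0.10, adjusted p = 1.84e-08). Mitochondrially encoded transcripts took 1.16% to 1.36% of the counts with anticarin-β, against 4.74% to 5.10% with vehicle, and 1.23% to 1.25% in the libraries labelled CCT4 siRNA, against 2.08% to 2.30% with control siRNA. The factors' summed shares are given below with and without these transcripts, and their part in the fold changes was not tested. Of 7 markers of a mesenchymal, bone-matrix line, means over the 12 libraries ran from 7.74 to 2770.4 CPM, while 6 markers of other cell types stayed between 0 and 8.08 CPM, with HBB at 0. Summed, the 7 gave 15705.5 to 16444.7 CPM with anticarin-β, against 9656.2 to 12514.1 with vehicle, and 6694.6 to 6949.3 in the libraries labelled CCT4 siRNA, against 5429.7 to 5760.3 with control siRNA. With anticarin-β 5 of them were called higher and 1 lower (CDH11, −1.37), and 2 and 0 in the libraries labelled CCT4 siRNA. The 6 others summed to 7.58 to 8.79 CPM with anticarin-β, against 6.77 to 9.46 with vehicle, and 12.3 to 15.04 in the libraries labelled CCT4 siRNA, against 12.5 to 14.3 with control siRNA. Of the 3 that could be tested, CDH5 was called higher (0.70) and PECAM1 lower (−1.03) with anticarin-β, and 0 in the siRNA comparison. Their part in the results was not tested.

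Of the 58 genes, 57 passed the filter on low counts. EIF4E1B, an eIF4E relative known from oocytes, was not tested: its counts were 0 with anticarin-β, against 4, 7 and 2 with vehicle, and summed to 0 and 1 over the libraries labelled CCT4 siRNA and those with control siRNA. EIF1AY is counted among the tested genes and its level is not given. Levels are in CPM, counts scaled to a common library size after TMM correction. A gene was called when its adjusted p from edgeR's quasi-likelihood test, taken over all 17717 genes tested, was under 0.05. With anticarin-β, 24 of the 57 were higher and 17 lower, and 16 were not called, among 73.0% of all genes called in either direction (34.9% higher, 38.0% lower). The median log2 fold change of the 57 was 0.16, beside −0.06 for all genes, and the values ran from −3.10 to 2.67. Changes over 2-fold were called for 5 higher and 6 lower factors, among 45.7% of all genes. Of the 57, in the libraries labelled CCT4 siRNA 22 were higher and 4 lower and 31 were not called, among 19.7% of all genes called (10.7% higher, 9.04% lower). There the median was 0.14, beside 0.01 for all genes, and 0 factors were called past 2-fold, among 3.06% of all genes.

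These splits depend on the scaling. With library totals alone, the median of all genes moved to −0.48 for anticarin-β and −0.12 for the labelled CCT4 siRNA. The factors then counted 14 higher and 29 lower with anticarin-β, among 74.8% of all genes called (24.2% and 50.6%), and 9 higher and 9 lower in the libraries labelled CCT4 siRNA, among 20.9% (5.09% and 15.8%). Counted without any test, the groups did not overlap for 22 factors that were higher and 17 lower with anticarin-β, among 74.6% of all genes (35.8% and 38.8%), and for 28 higher and 7 lower in the libraries labelled CCT4 siRNA, among 41.8% (21.7% and 20.1%). Reads per gene in bulk RNA cannot tell fewer cells of a kind from less RNA per cell, and the shift between the scalings has the same limit. Library totals aside, 37 of the 41 calls with anticarin-β and 15 of the 26 in the siRNA comparison were kept under each other setting tried and each left-out library. Opposite-strand genes overlap exons of EEF2K (708 bases), EIF2B1 (564), EIF2B2 (1283), EIF2B3 (347), EIF2B4 (199), EIF4E2 (1835), EEF1D (3492), EIF5B (852) and EIF4ENIF1 (422), among others, and reads of the partners could be mixed in if strand was not used.

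**Figure D1:**
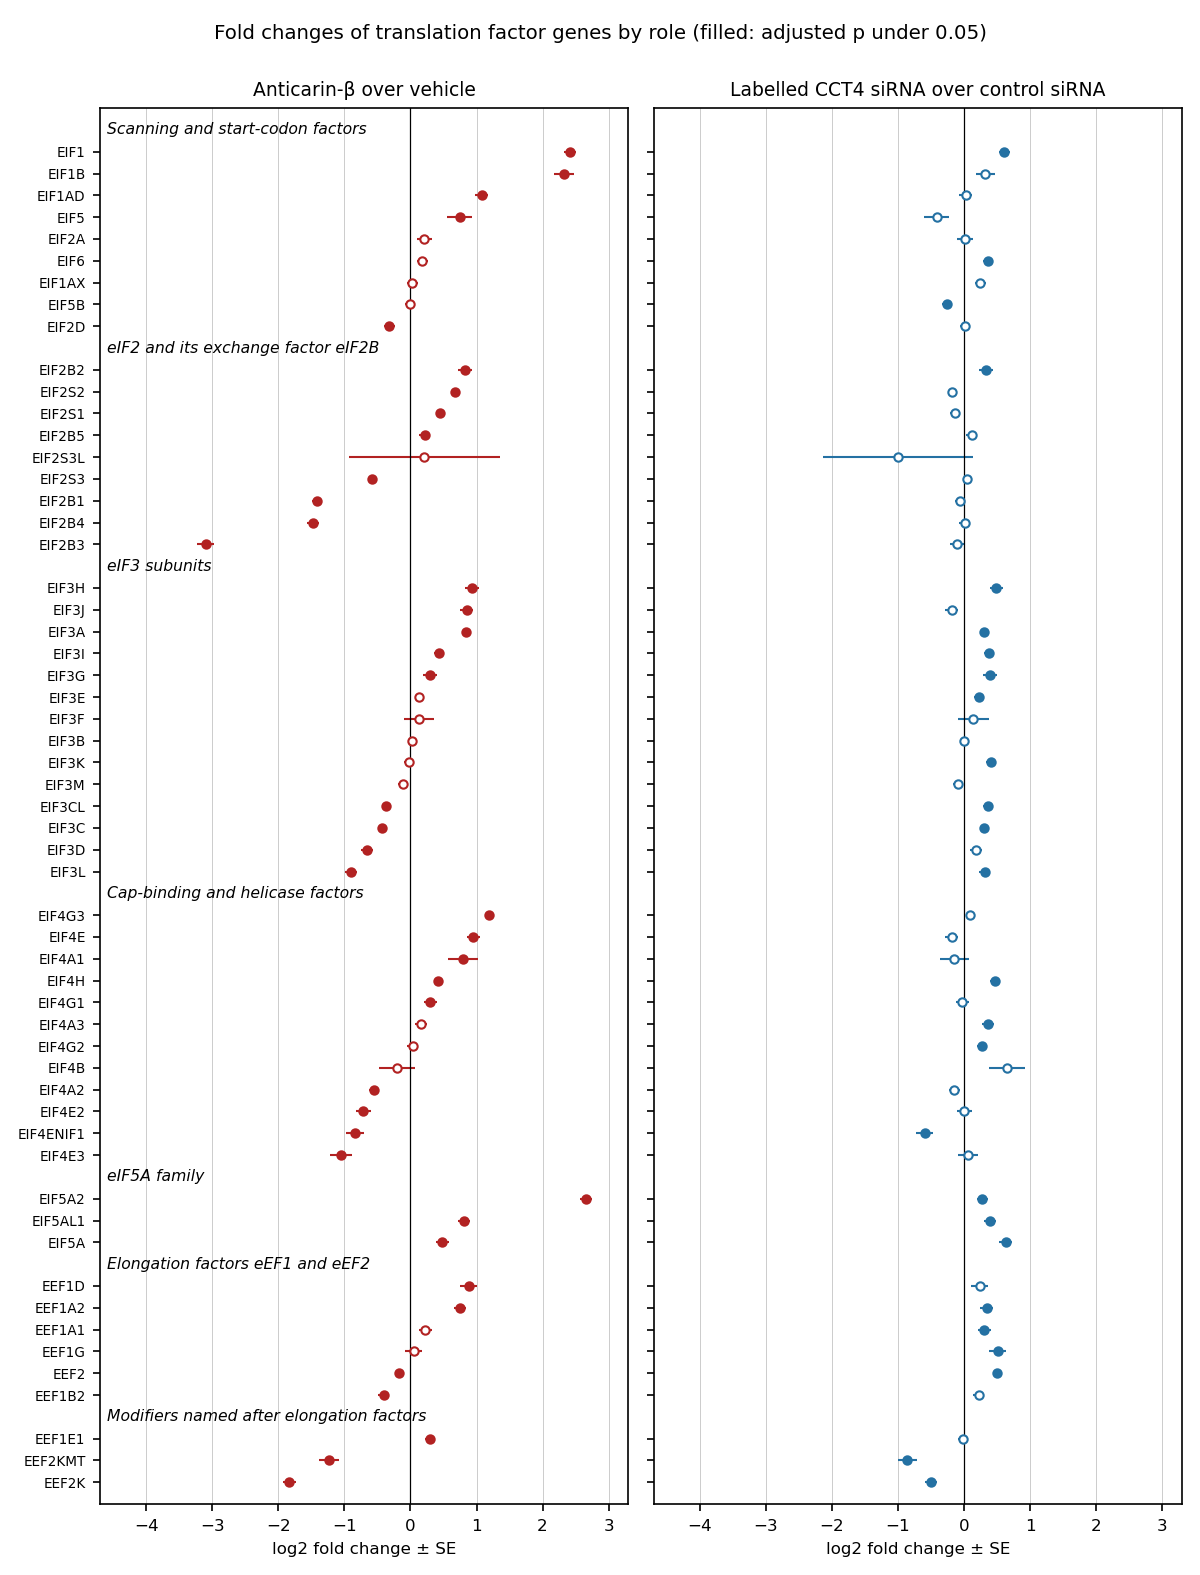
Log2 fold change (x axis, ± SE) of 56 translation factor genes, grouped by role, for anticarin-β over vehicle (left) and for the libraries labelled CCT4 siRNA over control siRNA (right), with filled points for an adjusted p under 0.05. With anticarin-β the points spread from −3.10 (EIF2B3) to 2.67 (EIF5A2), while in the siRNA comparison they spread from −1.003 (EIF2S3L) to 0.66 (EIF4B), neither filled, and most filled ones are right of 0.

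The sequences at the transcription starts are shown so that the factors with and without a pyrimidine run there can be set apart in the counts that follow. Of 63 starts listed by RefSeq (GRCh38.p14) for 47 of the factor genes, 12 starts in 12 genes (19.0%) began with C and continued with pyrimidines to a run of at least 5 bases, against 4.07% of all 35116 starts in the table. This search was chosen after the counts were in hand. In the lines below, 20 bases before the start and 24 bases from it are given 5′ to 3′ on the strand of the gene, and capitals mark the pyrimidine run.
EEF1A1: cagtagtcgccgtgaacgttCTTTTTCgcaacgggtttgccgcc
EEF1B2: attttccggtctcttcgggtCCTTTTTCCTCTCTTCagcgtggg
EEF2: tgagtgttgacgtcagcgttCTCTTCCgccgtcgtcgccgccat
EIF2D: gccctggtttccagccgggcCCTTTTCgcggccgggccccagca
EIF2S3: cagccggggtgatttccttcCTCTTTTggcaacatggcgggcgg
EIF3D: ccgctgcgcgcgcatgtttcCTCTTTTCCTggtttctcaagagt
EIF4A2: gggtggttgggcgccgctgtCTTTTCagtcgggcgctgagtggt
The stretches lie at chr6:73521009-73521052 (EEF1A1, minus strand), chr2:206159875-206159918 (EEF1B2, plus), chr19:3985440-3985483 (EEF2, minus), chr1:206612442-206612485 (EIF2D, minus), chrX:24054936-24054979 (EIF2S3, plus), chr22:36529143-36529186 (EIF3D, minus) and chr3:186783557-186783600 (EIF4A2, plus). The run was 16 bases in EEF1B2, 10 in EIF3D, 7 in EEF1A1, EEF2, EIF2D and EIF2S3, and 6 in EIF4A2. EIF2A, EIF3F, EIF3K, EIF3M and EIF4B also held a run, of 5 to 10 bases.

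The starts of 4 genes that rose with anticarin-β are shown for contrast. The genes with a run shown above are the 6 called lower with anticarin-β and EEF1A1. Starts of the 8 tested factors without a run that were called lower are not shown. The lines therefore do not stand for all factors with or without a run. In the lines below capitals mark the first 5 transcribed bases, none of which form such a run.
EIF1: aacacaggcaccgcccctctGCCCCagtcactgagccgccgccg
EIF1B: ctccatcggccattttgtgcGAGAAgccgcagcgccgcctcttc
EIF4E: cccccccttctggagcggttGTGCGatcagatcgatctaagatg
EIF5A2: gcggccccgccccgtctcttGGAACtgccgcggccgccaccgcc
These lie at chr17:41688865-41688908 (EIF1, plus), chr3:40309687-40309730 (EIF1B, plus), chr4:98929110-98929153 (EIF4E, minus) and chr3:170908614-170908657 (EIF5A2, minus). Of the 12 factors with a run, 0 were higher and 6 lower with anticarin-β (EEF1B2, EEF2, EIF2D, EIF2S3, EIF3D and EIF4A2; median −0.19). Under RLE scaling 2 were higher and 5 lower, and with library totals alone 0 and 8. Of the 34 tested factors whose listed starts hold no run, 18 were higher and 8 lower (median 0.26). In the whole table, of 787 tested genes with one, 31.8% were higher and 42.9% lower with anticarin-β, against 35.1% and 40.8% of 10166 genes without one. Among the libraries labelled CCT4 siRNA, 3 of the 12 were higher and 0 lower (median 0.16), against 12 and 3 of the 34 (median 0.06). Among all genes with a run 14.4% were higher and 8.89% lower there, against 10.9% and 10.1% without one. The list of 9 factors known from the literature as TOP mRNAs, of which EEF1A1, EEF1B2, EEF2, EIF3F and EIF4B held a run, had 2 higher and 2 lower with anticarin-β (2 and 4 with library totals alone) and 5 higher and 0 lower in the libraries labelled CCT4 siRNA (3 and 0).

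In the 300 bases around the starts (250 before, 50 after), CACGTG, the E-box letters, occurred in 11 of 63 factor starts (17.5%) against 6.34% of all starts. It reads the same on both strands. Among the genes with it, EIF1B, EIF4E, EIF4G1, EIF4H and EIF5A2 were called higher with anticarin-β, and EEF2K and EIF2B3 lower. EIF3F, EIF3K, EIF4A3 and EIF4B were not called. Of all genes, 34.9% were higher and 38.0% lower. TGATGNAA, searched on both strands as the letters of the ATF4 and CHOP composite site, occurred in 1 factor start (EIF4E3, 1.59%) against 3.14% of all.

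Among the 10 scanning and start-codon factors, 4 rose and 1 fell with anticarin-β, or 3 and 5 with library totals alone. Of all genes, 34.9% were called higher and 38.0% lower with anticarin-β, or 24.2% and 50.6% with library totals alone. The counts of each role below are to be read beside these shares. EIF1, which keeps the scanning complex open until the start codon is met (chromosome 17, 41688885 to 41692668, plus strand), was at 746, 695 and 715 CPM with anticarin-β, against 131, 145 and 128 CPM with vehicle. The 3 treated libraries lay far above all vehicle libraries, 5.33-fold on average (log2 fold change 2.41 ± 0.09, adjusted p = 1.23e-10). In the siRNA experiment EIF1 was at 183, 178 and 180.1 CPM in the libraries labelled CCT4 siRNA, against 106, 115 and 133 CPM with control siRNA, again without overlap but by a smaller step, 1.53-fold (log2 fold change 0.61 ± 0.08, adjusted p = 4.46e-04). The 2 changes differed by 1.80 on the log2 scale (adjusted p = 6.35e-08).

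EIF1B, a close copy of EIF1 on another chromosome (chromosome 3, 40309684 to 40312424, plus strand), was at 73.9, 75.0 and 75.9 CPM with anticarin-β, against 12.8, 19.1 and 13.1 CPM with vehicle. The groups did not overlap and the level was 4.99-fold higher (log2 fold change 2.32 ± 0.15, adjusted p = 1.89e-08). It was at 23.1, 24.4 and 29.8 CPM in the libraries labelled CCT4 siRNA, against 22.3, 20.6 and 19.1 CPM with control siRNA, a step that missed the threshold (log2 fold change 0.32 ± 0.15, adjusted p = 0.149, 95% interval 0.00308 to 0.64). EIF1AD, an eIF1A-domain protein gene (chromosome 11, 65996545 to 66002176, minus strand), was at 35.1, 38.3 and 42.7 CPM with anticarin-β, against 19.0, 18.6 and 17.5 CPM with vehicle, 2.11-fold higher without overlap (log2 fold change 1.08 ± 0.10, adjusted p = 4.11e-07). Its level differed, between the libraries labelled CCT4 siRNA and control siRNA, by 0.02 ± 0.09 (adjusted p = 0.901).

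EIF5, the GTPase activator of eIF2 at the start codon, was at 119, 111 and 127 CPM with anticarin-β, against 83.9, 63.0 and 66.0 CPM with vehicle, without overlap (log2 fold change 0.75 ± 0.19, adjusted p = 0.00306). It was at 42.8, 43.1 and 35.7 CPM in the libraries labelled CCT4 siRNA, against 40.9, 46.3 and 74.5 CPM with control siRNA, where control siRNA replicate 3 stood above the other libraries (log2 fold change −0.41 ± 0.19, adjusted p = 0.153). The call with anticarin-β was lost with library totals alone (0.33). EIF2D, which can deliver tRNA to the ribosome without eIF2, was lower, at 53.4 ± 0.970 CPM with anticarin-β, against 66.8 ± 3.20 CPM with vehicle (mean ± SD of 3 libraries each), with a log2 fold change −0.32 ± 0.08, adjusted p = 0.00333.

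EIF5B, the GTPase that joins the ribosomal subunits, differed by −0.01 with anticarin-β (adjusted p = 0.935), was called lower there with library totals alone (−0.43), and fell in the libraries labelled CCT4 siRNA. It was at 151, 148 and 149 CPM in the libraries labelled CCT4 siRNA, against 183, 186 and 166 CPM with control siRNA, a small step without overlap (log2 fold change −0.26 ± 0.07, adjusted p = 0.0252) whose call was lost without any 1 of the labelled CCT4 siRNA libraries or without control siRNA replicate 1 or 2 (adjusted p between 0.063 and 0.0935), and without a filter on low counts (adjusted p = 0.0538). EIF6, which keeps the large ribosomal subunit from joining too early, was called higher in the libraries labelled CCT4 siRNA (log2 fold change 0.36 ± 0.08, adjusted p = 0.00793), a call lost with library totals alone (0.23). With anticarin-β it differed by 0.18 ± 0.08 (adjusted p = 0.0559), and by −0.24, called lower, with library totals alone. It was called higher with RLE scaling or DESeq2 (0.24 each), with a filter of 1 CPM (0.20) and without anticarin-β replicate 2 or 3 (0.22 each). EIF1AX and EIF2A passed in neither comparison under the settings used for the calls. EIF1AX differed by 0.03 and 0.25, and EIF2A by 0.21 and 0.01, with anticarin-β and in the libraries labelled CCT4 siRNA. EIF1AX was called lower with anticarin-β under library totals alone (−0.39) and higher in the siRNA comparison without vehicle replicate 1 in the joint fit (0.25). EIF2A was called higher with anticarin-β under RLE scaling or DESeq2 (0.28 each) and without vehicle replicate 2 (0.36).

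**Figure D2:**
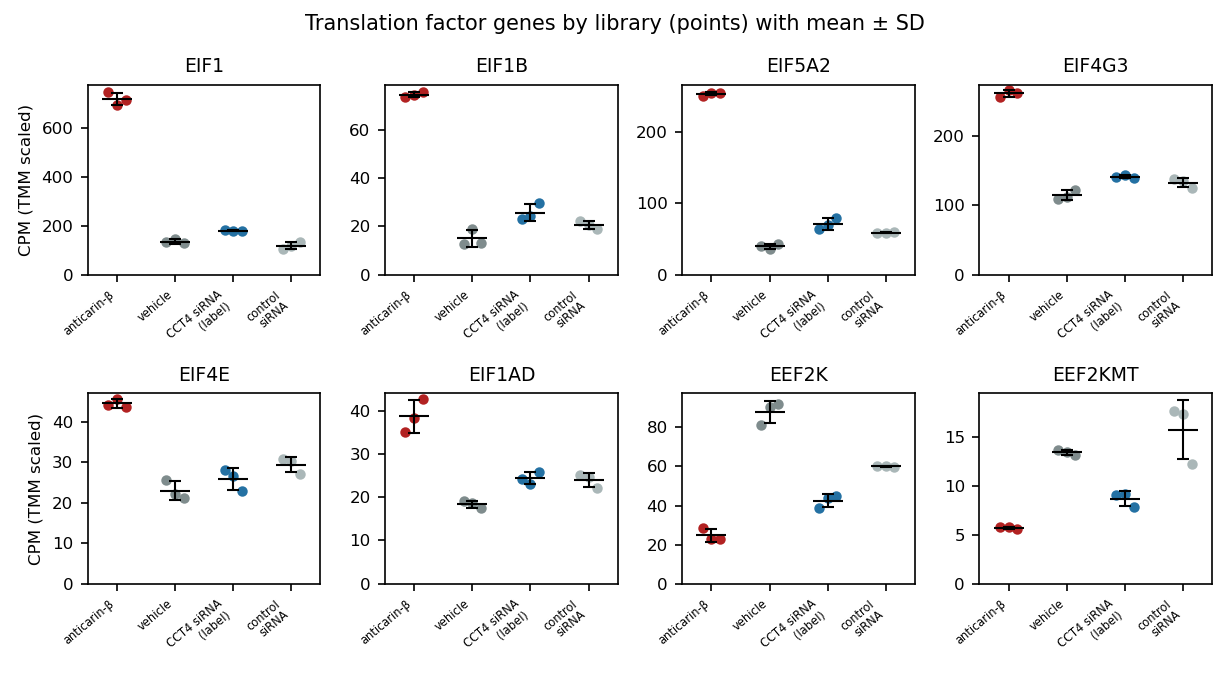
Levels in CPM (y axis, from 0) of 8 translation factor genes in each library (points), with the mean and SD of each group of 3. In every panel the anticarin-β points lie apart from the vehicle points, above them in 6 panels and below them for EEF2K and EEF2KMT.

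The genes of eIF2 and eIF2B split within each complex with anticarin-β, 4 higher and 4 lower of 9, or 2 and 5 with library totals alone. All genes stood at 34.9% higher and 38.0% lower, or 24.2% and 50.6%, so a split alone does not set these complexes apart. EIF2B3, a catalytic-arm subunit of the exchange factor (chromosome 1, 44850522 to 44986722, minus strand), had the largest fall of the 57 genes. It was at 3.86, 3.97 and 3.01 CPM with anticarin-β, against 34.2, 30.2 and 28.6 CPM with vehicle, 8.57-fold lower without overlap (log2 fold change −3.10 ± 0.13, adjusted p = 3.52e-10). EIF2B4, a regulatory subunit that senses phosphorylated eIF2, was at 13.1, 11.6 and 13.8 CPM with anticarin-β, against 38.3, 36.7 and 32.6 CPM with vehicle, 2.79-fold lower (log2 fold change −1.48 ± 0.09, adjusted p = 1.78e-08). EIF2B1, another regulatory subunit, was at 19.4, 17.2 and 20.2 CPM with anticarin-β, against 52.3, 51.1 and 48.4 CPM with vehicle, 2.67-fold lower (log2 fold change −1.42 ± 0.08, adjusted p = 5.06e-09). In all 3 cases every treated library was below every vehicle library.

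The other 2 subunits went up. EIF2B2, the remaining regulatory subunit, was at 37.9, 31.4 and 34.1 CPM with anticarin-β, against 20.4, 19.8 and 18.3 CPM with vehicle, without overlap (log2 fold change 0.82 ± 0.10, adjusted p = 1.21e-05). EIF2B5, which holds the exchange activity, was called higher by a small step, at 35.3 ± 1.39 CPM with anticarin-β, against 30.4 ± 1.58 CPM with vehicle (mean ± SD of 3 libraries each), with a log2 fold change 0.21 ± 0.08, adjusted p = 0.0296. That call was lost under upper-quartile scaling (0.10), without a filter on low counts (0.19) and without any 1 of 4 libraries of the experiment (anticarin-β replicate 2 or 3, vehicle replicate 1 or 3, 0.17 to 0.21), and with library totals alone EIF2B5 was called lower (−0.20).

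The 3 subunits that fell with the compound did not pass in the siRNA experiment. EIF2B3 was at 23.7, 21.8 and 21.9 CPM in the libraries labelled CCT4 siRNA, against 22.3, 24.2 and 25.6 CPM with control siRNA (log2 fold change −0.10, adjusted p = 0.572, 95% interval −0.33 to 0.13), EIF2B4 differed by 0.01 (interval −0.19 to 0.20) and EIF2B1 by −0.06 (−0.22 to 0.11). The changes of EIF2B3, EIF2B4 and EIF2B1 differed between the experiments by −2.999, −1.49 and −1.36 (adjusted p = 1.63e-08, 7.64e-07 and 3.57e-07). EIF2B2 was called higher in the libraries labelled CCT4 siRNA (log2 fold change 0.33 ± 0.10, adjusted p = 0.0386), but the call was lost in several settings, among them upper-quartile scaling, the replicate block and each left-out library of the pair except CCT4 siRNA replicate 1.

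Of the subunits of eIF2 itself, EIF2S1 (alpha, which carries the regulatory phosphorylation site) and EIF2S2 (beta) rose and EIF2S3 (gamma, which binds GTP and the tRNA) fell. EIF2S2 was at 198, 196 and 198 CPM with anticarin-β, against 131, 124 and 116 CPM with vehicle (log2 fold change 0.67 ± 0.06, adjusted p = 8.73e-07), and EIF2S1 was 1.37-fold higher (log2 fold change 0.45 ± 0.07, adjusted p = 6.99e-05), a call lost with library totals alone (0.03). EIF2S3 was at 271, 267 and 266 CPM with anticarin-β, against 409, 401 and 390.3 CPM with vehicle, 1.49-fold lower (log2 fold change −0.58 ± 0.05, adjusted p = 7.23e-07). None of the 3 passed in the libraries labelled CCT4 siRNA, with log2 fold changes of −0.14, −0.18 and 0.05, while with library totals alone EIF2S1 and EIF2S2 were called lower there (−0.27 and −0.31). EIF2S2 was also called lower there with upper-quartile scaling (−0.20), with DESeq2 or the siRNA experiment alone (−0.19 each) and without vehicle replicate 1 (−0.18). EIF2S3L, a retrocopy of the gamma subunit gene, gave from 0.92 to 17.6 CPM and varied as widely within each group, so it carries no direction.

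**Figure D3:**
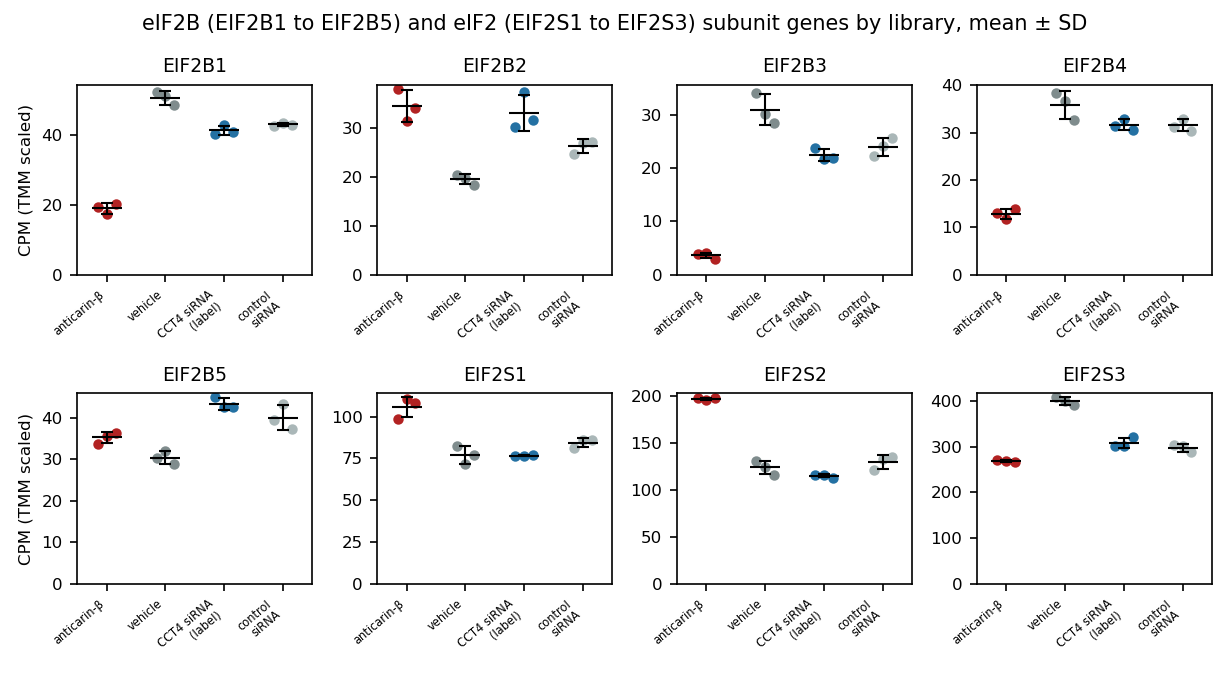
Levels in CPM (y axis, from 0) of the 5 eIF2B and 3 eIF2 subunit genes in each library (points), with the mean and SD of each group of 3. EIF2B1, EIF2B3, EIF2B4 and EIF2S3 are lower with anticarin-β than with vehicle, and EIF2B2, EIF2B5, EIF2S1 and EIF2S2 are higher. In the siRNA experiment EIF2B2 is higher in the 3 libraries labelled CCT4 siRNA than in those with control siRNA.

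The 14 genes of eIF3, the largest initiation factor and the platform on which the small subunit assembles, split with anticarin-β into 5 higher, 4 lower and 5 not called, or 3 higher and 8 lower with library totals alone. The shares of all genes were 34.9% higher and 38.0% lower, or 24.2% and 50.6% with library totals alone. EIF3A, the scaffold subunit, was at 725, 757 and 741 CPM with anticarin-β, against 437, 392 and 408 CPM with vehicle, 1.80-fold higher (log2 fold change 0.85 ± 0.06, adjusted p = 2.86e-08). EIF3H (log2 fold change 0.93 ± 0.10, adjusted p = 3.34e-06) and EIF3J, a loosely bound subunit (log2 fold change 0.85 ± 0.10, adjusted p = 5.35e-06), rose by similar steps, and EIF3I rose by less (log2 fold change 0.44 ± 0.08, adjusted p = 1.86e-04), a call lost with library totals alone (0.02). The smallest of the 5, EIF3G (log2 fold change 0.29 ± 0.11, adjusted p = 0.0270), was lost under upper-quartile scaling (0.18) and without any 1 anticarin-β library or vehicle replicate 2 or 3 (0.18 to 0.30), and turned to −0.13 with library totals alone.

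The 4 that fell were EIF3L, EIF3D, EIF3C and EIF3CL. EIF3L, a peripheral subunit that shares exons with AL022311.1 on its strand, was at 97.7, 101 and 95.4 CPM with anticarin-β, against 158, 201 and 189 CPM with vehicle, 1.87-fold lower (log2 fold change −0.90 ± 0.08, adjusted p = 6.91e-07). EIF3D, which can bind the cap of some mRNAs, was at 105, 83.9 and 93.3 CPM with anticarin-β, against 154, 159 and 133 CPM with vehicle (log2 fold change −0.66 ± 0.09, adjusted p = 3.40e-05). EIF3C and its near-identical copy EIF3CL were 1.35- and 1.29-fold lower, and reads between them may be split by the counting, with EIF3CL holding 54.2% ± 0.605 of the pair's counts with anticarin-β and 53.1% ± 1.09 with vehicle (SD, n = 3 each). No overlap was seen between the groups for any of the 4.

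Of the 14, in the libraries labelled CCT4 siRNA, 9 were higher and 0 lower (median 0.30), against 4 and 1 under library totals (median 0.17). The shares of all genes there were 10.7% higher and 9.04% lower, or 5.09% and 15.8% under library totals. EIF3H was at 397, 397 and 409 CPM in the libraries labelled CCT4 siRNA, against 279, 317 and 261 CPM with control siRNA, 1.40-fold higher (log2 fold change 0.49 ± 0.10, adjusted p = 0.00625). EIF3K, a small peripheral subunit, was 1.32-fold higher (log2 fold change 0.40 ± 0.07, adjusted p = 0.00262), and EIF3A 1.23-fold (log2 fold change 0.30 ± 0.06, adjusted p = 0.00388). EIF3C, EIF3CL and EIF3L, which fell with the compound, were higher here (0.30 ± 0.06, 0.36 ± 0.07 and 0.32 ± 0.08, adjusted p = 0.00378, 0.00435 and 0.0205), and the differences between the experiments were −0.73, −0.72 and −1.22 (adjusted p = 6.17e-06, 4.15e-05 and 1.97e-06). The call of EIF3L was lost without CCT4 siRNA replicate 1 or 3 or control siRNA replicate 1 or 3 (0.29 to 0.31), and those of EIF3E and EIF3G without any 1 library of the pair.

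Of 12 tested cap-binding and helicase factors, 5 rose and 4 fell with anticarin-β, or 2 and 6 with library totals alone. All genes stood at 34.9% higher and 38.0% lower, or 24.2% and 50.6% with library totals alone. EIF4G3, a scaffold paralog of eIF4G1 (chromosome 1, 20806292 to 21176888, minus strand), was at 257, 267 and 262 CPM with anticarin-β, against 109, 112 and 123 CPM with vehicle, 2.29-fold higher without overlap (log2 fold change 1.19 ± 0.06, adjusted p = 3.99e-09). EIF4E, the cap-binding protein (chromosome 4, 98871684 to 98930637, minus strand), was at 44.3, 45.8 and 43.8 CPM with anticarin-β, against 25.6, 22.3 and 21.2 CPM with vehicle, 1.94-fold higher (log2 fold change 0.95 ± 0.10, adjusted p = 2.29e-06). Its relatives went the other way: EIF4E3 was at 5.79, 5.91 and 8.79 CPM with anticarin-β, against 14.3, 14.4 and 13.9 CPM with vehicle, 2.07-fold lower (log2 fold change −1.05 ± 0.16, adjusted p = 6.42e-05), and EIF4E2, which represses the mRNAs it binds, was at 50.3, 43.3 and 40.4 CPM with anticarin-β, against 79.5, 68.8 and 71.6 CPM with vehicle (log2 fold change −0.72 ± 0.11, adjusted p = 7.84e-05). EIF4E3 shares 738 exon bases with AC097634.4 on its strand and is uncertain to that extent.

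The helicase genes also moved apart. EIF4A1 was at 256, 358 and 176 CPM with anticarin-β, against 135, 138 and 181 CPM with vehicle, with wide spread among the treated libraries and replicate 3 inside the range of vehicle (log2 fold change 0.80 ± 0.22, adjusted p = 0.00598, and 0.38 with library totals alone, where the call was lost). EIF4A2 was at 148, 139.7 and 155 CPM with anticarin-β, against 212, 215 and 223 CPM with vehicle, without overlap (log2 fold change −0.55 ± 0.08, adjusted p = 4.17e-05). EIF4A1 lies within the readthrough gene SENP3-EIF4A1, with which it shares most exons, so part of its reads may have been left uncounted or shared. EIF4H, which assists the helicase, rose in both comparisons. It was at 415, 415 and 377 CPM with anticarin-β, against 316, 293 and 291 CPM with vehicle (log2 fold change 0.42 ± 0.07, adjusted p = 1.81e-04) and at 322, 309 and 296 CPM in the libraries labelled CCT4 siRNA, against 210.0, 216 and 244 CPM with control siRNA (log2 fold change 0.47 ± 0.07, adjusted p = 0.00107), without overlap, but with library totals alone the first call was lost (0.01). EIF4G1, the main scaffold, was called higher with anticarin-β (log2 fold change 0.30 ± 0.10, adjusted p = 0.0126) although its groups overlapped, and the call was lost under upper-quartile scaling (0.19), turned with library totals alone (−0.12) and was lost without anticarin-β replicate 2 or 3 or vehicle replicate 2 (0.20 to 0.26).

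EIF4ENIF1, a transporter that binds eIF4E and represses its mRNAs, fell in both comparisons. It was at 14.2, 14.5 and 12.0 CPM with anticarin-β, against 27.1, 25.1 and 20.7 CPM with vehicle (log2 fold change −0.84 ± 0.14, adjusted p = 1.01e-04) and at 19.7, 15.9 and 16.5 CPM in the libraries labelled CCT4 siRNA, against 26.4, 29.0 and 23.5 CPM with control siRNA (log2 fold change −0.60 ± 0.13, adjusted p = 0.00836), and the groups did not overlap in either. EIF4B, the partner of eIF4A, was unstable: it was at 242, 219 and 449 CPM with anticarin-β, against 369, 461 and 222 CPM with vehicle (log2 fold change −0.21 ± 0.27, adjusted p = 0.501), and without anticarin-β replicate 3 it was called lower (−0.60). After siRNA transfection EIF4B was at 318, 318 and 324 CPM in the libraries labelled CCT4 siRNA, against 202, 174 and 235 CPM with control siRNA, without overlap, and missed the threshold (0.66 ± 0.27, adjusted p = 0.113). It was called higher with that experiment fitted alone (0.64, adjusted p = 0.00473) and without anticarin-β replicate 3 in the joint fit (0.66, adjusted p = 0.0456). EIF4A3 and EIF4G2 were called higher in the libraries labelled CCT4 siRNA only by small steps (0.36 ± 0.09 and 0.27 ± 0.08, adjusted p = 0.0199 and 0.0344), and both calls were lost with several libraries left out.

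The 3 genes of the eIF5A family rose in both comparisons, and with library totals alone 2 were called with anticarin-β and 1 in the libraries labelled CCT4 siRNA. The shares of all genes called higher were 34.9% and 10.7%, or 24.2% and 5.09% with library totals alone. EIF5A2, the eIF5A isoform gene that many tissues keep low and that is known for its amplification in tumours (chromosome 3, 170888415 to 170908693, minus strand), had the largest rise of the 57. It was at 251, 254 and 256 CPM with anticarin-β, against 40.2, 36.4 and 43.5 CPM with vehicle, 6.34-fold higher (log2 fold change 2.67 ± 0.09, adjusted p = 8.21e-11). All treated libraries agreed within a few CPM and lay far above vehicle. In the siRNA experiment it was at 63.8, 69.2 and 79.8 CPM in the libraries labelled CCT4 siRNA, against 58.7, 57.8 and 59.3 CPM with control siRNA (log2 fold change 0.28 ± 0.09, adjusted p = 0.0426), a call lost with upper-quartile scaling (0.25), with library totals alone (0.14), without any 1 anticarin-β library in the joint fit and without CCT4 siRNA replicate 2 or 3 or any 1 control siRNA library. The changes of EIF5A2 differed by 2.39 on the log2 scale (adjusted p = 9.79e-09).

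EIF5A, the common isoform, was at 631, 529 and 632 CPM with anticarin-β, against 474, 444 and 366 CPM with vehicle (log2 fold change 0.48 ± 0.10, adjusted p = 8.33e-04). It was at 456, 473 and 457 CPM in the libraries labelled CCT4 siRNA, against 274, 300.1 and 321 CPM with control siRNA, 1.55-fold higher (log2 fold change 0.63 ± 0.10, adjusted p = 0.00127), the largest called rise in the libraries labelled CCT4 siRNA. With library totals alone the call with anticarin-β was lost (0.06). EIF5AL1, an intronless copy of EIF5A on chromosome 10, moved with its parent (0.81 ± 0.09 and 0.39 ± 0.09 with anticarin-β and the labelled CCT4 siRNA, adjusted p = 2.91e-06 and 0.00966). Near-identical copies took 34.5% ± 2.31 of the summed EIF5A counts with anticarin-β, against 31.3% ± 0.351 with vehicle, and 28.7% ± 0.417 in the libraries labelled CCT4 siRNA, against 30.4% ± 1.47 with control siRNA (SD, n = 3 each), so the reads of the copies and the parent may be mixed.

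Of the 6 elongation factor genes, 2 rose and 2 fell with anticarin-β, or 2 and 3 with library totals alone. All genes stood at 34.9% higher and 38.0% lower, or 24.2% and 50.6% with library totals alone. EEF1A2, the eEF1A isoform typical of muscle and neurons, was at 409.6, 392 and 404 CPM with anticarin-β, against 207, 274 and 235 CPM with vehicle, 1.68-fold higher without overlap (log2 fold change 0.75 ± 0.09, adjusted p = 1.03e-05). EEF1D, a subunit of the eEF1B exchange complex, was at 662, 659.8 and 608 CPM with anticarin-β, against 340.4, 409 and 298 CPM with vehicle, 1.84-fold higher (log2 fold change 0.88 ± 0.13, adjusted p = 3.40e-05). EEF1B2, the catalytic subunit of the same complex, went down, at 111, 110.1 and 119 CPM with anticarin-β, against 162, 142 and 147 CPM with vehicle (log2 fold change −0.41 ± 0.08, adjusted p = 3.68e-04).

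EEF2, the translocase, was at 1691, 1618 and 1659 CPM with anticarin-β, against 1813, 1942 and 1877 CPM with vehicle, a small fall without overlap (log2 fold change −0.18 ± 0.06, adjusted p = 0.0109) whose call was lost under RLE scaling (−0.12) and with the compound experiment fitted alone (adjusted p = 0.0582). After siRNA transfection it was higher, at 1851, 1741 and 1689 CPM in the libraries labelled CCT4 siRNA, against 1254, 1236 and 1254 CPM with control siRNA, 1.41-fold (log2 fold change 0.50 ± 0.06, adjusted p = 1.23e-04), and the 2 changes differed by −0.68 (adjusted p = 1.03e-05). EEF1G, the structural subunit of eEF1B, was at 336, 269.9 and 286 CPM in the libraries labelled CCT4 siRNA, against 196, 207 and 223 CPM with control siRNA (log2 fold change 0.51 ± 0.13, adjusted p = 0.0162). That call was lost without CCT4 siRNA replicate 1 (0.41) or control siRNA replicate 1 (0.47) or 2 (0.50), and nearly all its exon bases are also those of AP002990.1. With anticarin-β EEF1G differed by 0.05 ± 0.13 (adjusted p = 0.742), and was called lower with library totals alone (−0.37).

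EEF1A1, the main eEF1A gene, was at 3517, 3458 and 3367 CPM with anticarin-β, against 2753, 2571 and 3544 CPM with vehicle. Vehicle replicate 3 lay among the treated libraries, and the difference missed the threshold (log2 fold change 0.22 ± 0.10, adjusted p = 0.0552, 95% interval 0.01 to 0.43), but it passed without that library (0.36) and under 4 other settings, while with library totals alone it was −0.20. Its levels in the siRNA experiment were 1867, 1924 and 1999 CPM in the libraries labelled CCT4 siRNA, against 1569, 1594 and 1527 CPM with control siRNA, without overlap, and the call (log2 fold change 0.30 ± 0.10, adjusted p = 0.0451) was lost without any 1 library of the pair. Most of the reads in this family stand on copies: 39 processed EEF1A1 copies held 69.5% ± 0.980 of the summed counts with anticarin-β and 65.7% ± 4.14 with vehicle, and 68.3% ± 0.156 in the libraries labelled CCT4 siRNA and 68.0% ± 0.860 with control siRNA (SD, n = 3 each). EEF1A1P5 took 75.7% of the copies' counts and EEF1A1P6 23.8%. With the copies added to the parent, a setting chosen after seeing the data, the sum was at 11139, 11420 and 11357 CPM with anticarin-β, against 8108, 8482 and 9186 CPM with vehicle. The groups then stood apart, and EEF1A1 was called higher in both comparisons (log2 fold change 0.40 with anticarin-β and 0.31 in the libraries labelled CCT4 siRNA, adjusted p = 1.01e-04 and 0.00534).

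EEF2K and EEF2KMT, whose proteins modify eEF2, fell in both comparisons. EEF2K, the kinase that phosphorylates eEF2 and slows elongation (chromosome 16, 22206282 to 22288732, plus strand), was at 28.5, 22.9 and 22.7 CPM with anticarin-β, against 81.4, 90.7 and 92.0 CPM with vehicle, 3.56-fold lower (log2 fold change −1.83 ± 0.10, adjusted p = 3.74e-09). It was at 39.0, 43.7 and 45.0 CPM in the libraries labelled CCT4 siRNA, against 60.2, 60.4 and 59.9 CPM with control siRNA, 1.41-fold lower (log2 fold change −0.50 ± 0.10, adjusted p = 0.00369). Both experiments showed groups apart, and the fall was larger with the compound (difference −1.33 on the log2 scale, adjusted p = 3.04e-06).

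EEF2KMT, a lysine methyltransferase of eEF2, was at 5.79, 5.73 and 5.52 CPM with anticarin-β, against 13.6, 13.4 and 13.2 CPM with vehicle, 2.36-fold lower (log2 fold change −1.24 ± 0.15, adjusted p = 7.38e-06). It was at 9.09, 9.11 and 7.78 CPM in the libraries labelled CCT4 siRNA, against 17.6, 17.3 and 12.2 CPM with control siRNA, 1.81-fold lower (log2 fold change −0.86 ± 0.14, adjusted p = 0.00144), again without overlap, and the 2 falls did not differ past the threshold (difference −0.38, adjusted p = 0.128, 95% interval −0.82 to 0.07). It overlaps ALG1 on the opposite strand by 915 exon bases, and how the counting used strand is not known here. EEF1E1, a scaffold protein of the tRNA synthetase complex, was higher, at 33.1 ± 0.461 CPM with anticarin-β, against 26.9 ± 1.37 CPM with vehicle (mean ± SD of 3 libraries each), with a log2 fold change 0.30 ± 0.07, adjusted p = 0.00272, but turned to −0.12 with library totals alone.

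Paralogs that can stand in for each other were compared by the share of each in its pair, with counts divided by exon length. With anticarin-β EIF4A2 made up 33.4%, 25.3% and 43.3% of the EIF4A2 and EIF4A1 sum, against 57.6%, 57.4% and 51.6% with vehicle. EIF4E2 made up 69.0%, 64.9% and 64.4% of its sum with EIF4E, against 85.9%, 85.8% and 86.9% with vehicle. Both shares were lower in every treated library than in any vehicle library.

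The shares of EIF4G3 and EIF5A2 were higher with the compound. EIF4G3 made up 19.7% ± 1.26 of its sum with EIF4G1, against 11.7% ± 1.51 with vehicle, and EIF5A2 made up 17.7% ± 1.56 of its sum with EIF5A, against 4.57% ± 0.938 with vehicle (SD, n = 3 each). EEF1A2 made up 12.4% ± 0.305 of its sum with EEF1A1, against 9.07% ± 2.11 with vehicle, counted without the EEF1A1 copies. These 5 pairs did not overlap between the groups (exact permutation test, two-sided, p = 0.1 each, the smallest that 3 against 3 allow), and shares within a pair do not depend on the scaling. The share of EIF1B in its sum with EIF1 overlapped, at 16.5% ± 0.619 with anticarin-β and 17.3% ± 2.34 with vehicle (exact permutation p = 0.9). In the siRNA experiment the groups overlapped for 5 of the 6 pairs. The exception was EIF5A2, at 7.17% ± 0.801 in the libraries labelled CCT4 siRNA and 9.03% ± 0.626 with control siRNA (exact permutation p = 0.1).

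**Figure D4:**
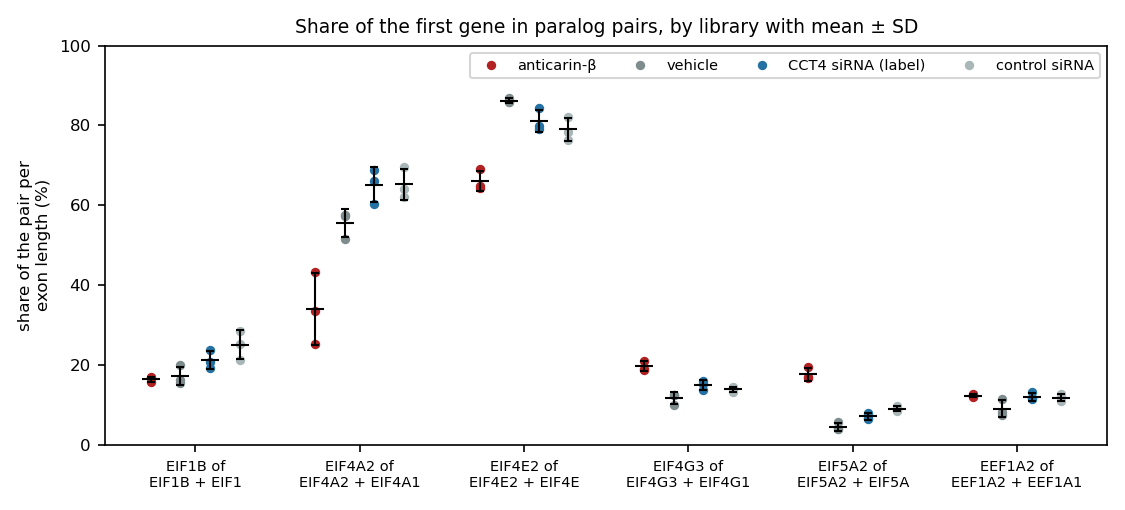
Share of the first-named gene in each of 6 paralog pairs, in percent of the pair's counts per exon length (y axis, 0 to 100), for each library (points) with the mean and SD of each group of 3. With anticarin-β the shares of EIF4A2 and EIF4E2 lie below those with vehicle, and the shares of EIF4G3 and EIF5A2 lie above, while the share of EIF1B is alike.

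Summed over genes, the factors took the following parts of all counts. The 49 initiation factors held 0.782% ± 0.0088 of the counts with anticarin-β and 0.824% ± 0.0617 with vehicle (SD, n = 3 each), with overlap (exact permutation test, two-sided, p = 0.4). They held 0.751% ± 0.00952 in the libraries labelled CCT4 siRNA, against 0.712% ± 0.00988 with control siRNA, without overlap (exact permutation p = 0.1). The 6 elongation factors held 0.533% ± 0.0111 with anticarin-β and 0.636% ± 0.0438 with vehicle, and 0.484% ± 0.0141 in the libraries labelled CCT4 siRNA and 0.407% ± 0.00209 with control siRNA, without overlap in either (exact permutation p = 0.1 each). The elongation sums leave out the 39 EEF1A1 copies. These held 69.5% ± 0.980 of that family's counts with anticarin-β and 65.7% ± 4.14 with vehicle. In the siRNA experiment they held 68.3% ± 0.156 with the labelled CCT4 siRNA and 68.0% ± 0.860 with control siRNA. The part of this split in the elongation sums was not tested. Counted without the mitochondrially encoded transcripts, the initiation factors held 0.792% ± 0.00967 with anticarin-β and 0.866% ± 0.0644 with vehicle, now without overlap, and 0.760% ± 0.00965 in the libraries labelled CCT4 siRNA and 0.728% ± 0.00963 with control siRNA. The elongation factors then held 0.540% ± 0.0107 with anticarin-β and 0.669% ± 0.0455 with vehicle, and 0.490% ± 0.0142 in the libraries labelled CCT4 siRNA and 0.417% ± 0.00253 with control siRNA (exact permutation p = 0.1 for all 4 of these comparisons). Divided by the TMM-scaled library size the sums turned higher with anticarin-β, 0.970% ± 0.0147 against 0.764% ± 0.0468 with vehicle for initiation and 0.661% ± 0.0113 against 0.591% ± 0.0456 for elongation. Per kilobase of exon EEF1A1 (579.6 CPM with anticarin-β, 497 with vehicle) and EEF2 (411 and 466) led in both groups of the compound experiment.

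Set side by side, 11 of the 57 factors (19.3%) were higher in both comparisons and 3 (5.26%) lower in both (EEF2K, EEF2KMT and EIF4ENIF1), against 6.76% and 5.90% of all genes tested. The 11 were EEF1A2, EIF1, EIF2B2, EIF3A, EIF3G, EIF3H, EIF3I, EIF4H, EIF5A, EIF5A2 and EIF5AL1. EIF5A and its copy EIF5AL1 may share reads. The siRNA calls of EEF1A2 (0.34), EIF2B2, EIF3G and EIF5A2 were each lost with some single libraries left out. For EEF1A2 these were CCT4 siRNA replicates 1 and 3 and control siRNA replicates 1 and 2 (0.29 to 0.36). The EIF3G call with anticarin-β was also lost with some single libraries left out. EEF2, EIF3C, EIF3CL and EIF3L were lower with anticarin-β and higher in the libraries labelled CCT4 siRNA (7.02%, against 2.02% of all genes), and 0 were the other way round (1.70% of all genes). EIF3C and EIF3CL are near-identical and may share reads, so these genes need not be separate signals. The EEF2 call with anticarin-β was lost under RLE scaling and with the compound experiment fitted alone. For EIF3L the siRNA call was lost without CCT4 siRNA replicate 1 or 3 or control siRNA replicate 1 or 3. With library totals alone 2 were higher in both (EIF1 and EIF3H, 3.51% against 2.86% of all genes) and 5 lower in both (EEF2K, EEF2KMT, EIF4A2, EIF4ENIF1 and EIF5B, 8.77% against 11.3%). Under that scaling 4 were lower with anticarin-β and higher in the siRNA comparison (EEF1G, EEF2, EIF3CL and EIF3K, 7.02% against 1.24%), and 3 the other way round (EIF2S2, EIF3J and EIF4E, 5.26% against 2.43%). The 2 comparisons have no library in common, but they share 1 estimate of the spread. The difference of the responses was called for 36 of the 57, 19 higher and 17 lower, among 59.9% of all genes (27.5% higher, 32.4% lower), or 11 and 30 with library totals alone, among 62.1% (21.0% and 41.1%). Over the 12 libraries, the factors whose log2 CPM was most like that of EEF1A1 were EIF4G2 (Pearson r = 0.93), EIF1AX (0.88) and EIF3A (0.88). For EIF4A1 they were EIF3A (0.81), EIF3J (0.78) and EEF1A2 (0.78). The libraries of a group share their treatment, and these values describe likeness only.

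The genes that regulate the factors were also read. Their lists, and those that follow, stand beside all genes, of which 34.9% were called higher and 38.0% lower with anticarin-β. The shares were 10.7% and 9.04% in the libraries labelled CCT4 siRNA. With library totals alone they were 24.2% and 50.6%, and 5.09% and 15.8%. Of 6 genes that set the phosphorylation of eIF2, 4 were higher and 1 lower with anticarin-β, and 4 and 1 in the libraries labelled CCT4 siRNA. With library totals alone these were 3 and 2, and 2 and 1. PPP1R15A, the stress-induced adaptor that directs eIF2 dephosphorylation, was at 1016, 998 and 991 CPM with anticarin-β, against 59.9, 60.6 and 58.8 CPM with vehicle (log2 fold change 4.07 ± 0.07, adjusted p = 1.24e-12), and at 502, 466 and 462 CPM in the libraries labelled CCT4 siRNA, against 167, 162 and 153 CPM with control siRNA (log2 fold change 1.57 ± 0.06, adjusted p = 1.40e-08). PPP1R15B, its constitutive relative, was 8.60-fold higher with anticarin-β and 1.66-fold higher in the libraries labelled CCT4 siRNA, and EIF2AK3, the kinase PERK of the endoplasmic reticulum, 3.16-fold and 1.22-fold. EIF2AK1, the heme-regulated kinase, was the gene that fell (log2 fold changes −1.52 with anticarin-β and −0.24 in the libraries labelled CCT4 siRNA), and is named here after its values were seen.

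Of the 3 genes of 4E-binding proteins, which hold eIF4E off eIF4G, EIF4EBP2 rose to 260.3 ± 9.72 CPM with anticarin-β, against 99.9 ± 6.06 CPM with vehicle (mean ± SD of 3 libraries each) (log2 fold change 1.38 ± 0.07, adjusted p = 1.68e-09). EIF4EBP1 fell to 73.0 ± 6.59 CPM with anticarin-β, against 143 ± 6.08 CPM with vehicle (mean ± SD of 3 libraries each) (log2 fold change −0.98 ± 0.08, adjusted p = 1.77e-07). EIF4EBP3, which shares exons with ANKHD1-EIF4EBP3 on its strand, was called higher at a low level (log2 fold change 0.86 ± 0.31, adjusted p = 0.0236), and 0 of the 3 were called in the libraries labelled CCT4 siRNA. With library totals alone 1 of the 3 was higher, 1 lower and 1 not called with anticarin-β. Of 11 genes of mTOR and MNK control, 5 were higher and 4 lower with anticarin-β, or 4 and 6 with library totals alone. TSC1, a brake on mTOR, rose 5.82-fold, while its partner TSC2 and MTOR itself were 2.87- and 2.77-fold lower. In the libraries labelled CCT4 siRNA, RPS6KB2, an S6 kinase, was higher (0.43 ± 0.10) and PDCD4, an inhibitor of eIF4A, lower (−0.29 ± 0.08).

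Of 8 termination, recycling and rescue genes, 4 were higher and 3 lower with anticarin-β, and 1 and 1 in the libraries labelled CCT4 siRNA. ETF1, the release factor, and ABCE1, which splits ribosomes, rose 2.89- and 2.20-fold with the compound, and DENR, which recycles the small subunit, was 2.15-fold lower. Of 8 genes for the hypusine of eIF5A and the diphthamide of eEF2, 3 were higher and 3 lower with anticarin-β (median −0.06) and 0 were called in the libraries labelled CCT4 siRNA. The diphthamide enzymes DPH5 and DPH6 were 3.94- and 4.12-fold lower, and DPH3 2.00-fold higher. Of 5 poly(A)-binding proteins and partners 2 were higher and 1 lower, with PABPC1 1.61-fold higher, and 1 was higher in the libraries labelled CCT4 siRNA. Of 9 mitochondrial translation factors 3 were higher and 4 lower with anticarin-β. MTIF2, the mitochondrial initiation factor, was 6.43-fold lower and GFM1, a mitochondrial elongation factor, 2.23-fold higher. In the libraries labelled CCT4 siRNA 2 of the 9 were higher (TUFM 0.28 ± 0.07, GFM1 0.31 ± 0.08). With library totals alone these lists counted, with anticarin-β, 3 higher and 4 lower for termination, 3 and 4 for the hypusine and diphthamide enzymes, 2 and 2 for the poly(A)-binding group and 2 and 5 for the mitochondrial factors. In the libraries labelled CCT4 siRNA they counted 0 higher in each of the 4 lists, and 1, 2, 0 and 2 lower in the same order.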

How the data were processed

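RNA-seq of MG63 cells gave 12 libraries in 4 groups of 3, from a TruSeq stranded library kit, per the labels' protocols. The deposited file holds raw read counts per gene, and the authors aligned the reads to hg38 with STAR 2.5.2a and counted them with featureCounts 1.5.0 of the Subread package, per the submitters' processing notes. The annotation release, strand setting and handling of reads with several matches are not given in sources used here. Of the gene IDs, 98.5% were found in GENCODE 29, which gave positions, exon lengths and overlaps. Near-identical copies and overlapping genes can therefore share or lose reads.

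All 12 libraries entered 1 edgeR 4.0.16 quasi-likelihood fit (R 4.3.3, limma 3.58.1) with TMM scaling, no covariates and the default low-count filter, leaving 8 residual degrees of freedom. p-values were Benjamini-Hochberg adjusted over all 17717 genes tested, with 0.05 as the threshold, and SE belongs to the log2 fold change. The 2 treatments were each compared with their control, and the 2 responses with each other. Sums and paralog shares were compared with exact two-sided permutation tests, whose smallest p for 3 against 3 is 0.1. Alternatives were other scalings, filters, thresholds, tools (DESeq2 1.42.0, limma-voom), a replicate block, each experiment alone, each library left out, and copies added to their parent genes. The procedure was tested on simulated data in which a small part of the genes changed, as many up as down. That setting is unlike the compound experiment, so it cannot show how well the scaling works there.

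The members and lists were chosen with earlier results of these data known. Values in every library are given for the 6 highest and 6 lowest called factors per comparison (at least 5 CPM, groups apart), for paralog pairs and for the 4 highest and lowest called differences, and further members are described by role. Of each pathway list the 3 genes with the smallest p could be named. Start sequences come from RefSeq (GRCh38.p14). The start-run search, the motifs and the summing of copies were chosen after the counts were in hand. Library totals limit precision for low genes, and replicate pairs differed by 9.35 to 29.7 times the sampling noise (chi-square per degree of freedom). No library was therefore a plain second sequencing of another. The check cannot tell separate cultures from separate libraries of the same RNA.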

Additional observations from a re-analysis of the deposited data

Results flagged for a closer look

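Listed here are 8 factors, those with the 4 highest and 4 lowest called differences between the change with anticarin-β and that with the labelled CCT4 siRNA. The difference itself was tested (edgeR's quasi-likelihood test, adjusted over all genes). It was called for 36 of the 57 factors, among 59.9% of all genes, so a call alone does not set the 8 apart. The log2 fold change was higher with anticarin-β by 2.39 for EIF5A2 (adjusted p = 9.79e-09), 2.00 for EIF1B (adjusted p = 3.35e-06), 1.80 for EIF1 (adjusted p = 6.35e-08) and 1.16 for EIF5 (adjusted p = 0.00235). The difference was −2.999 for EIF2B3 (adjusted p = 1.63e-08), −1.49 for EIF2B4 (adjusted p = 7.64e-07), −1.36 for EIF2B1 (adjusted p = 3.57e-07) and −1.33 for EEF2K (adjusted p = 3.04e-06). The compound and the siRNA were applied for different times, and the libraries labelled CCT4 siRNA did not have less CCT4 mRNA than those with control siRNA. For EIF5, control siRNA replicate 3 (74.5 CPM) stood above the other 2 control libraries (40.9 and 46.3 CPM), and over the left-out libraries its difference ran from 0.84 to 1.32.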

How the results depend on the processing

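Library totals without scaling factors moved the counts most: 14 factors were higher and 29 lower with anticarin-β (median log2 fold change −0.26), 9 and 9 in the libraries labelled CCT4 siRNA (median 0.0109), and 11 and 30 for the difference (median −0.37). There EEF1A1 (−0.20) and EIF4G1 (−0.12) turned with anticarin-β and EIF4G3 (−0.0407) in the siRNA comparison. Upper-quartile scaling gave medians of 0.0498 with anticarin-β and 0.12 in the libraries labelled CCT4 siRNA. On TMM-scaled sizes the summed shares differed by 0.205 and 0.0702 percentage points with anticarin-β (initiation and elongation, both turned) and by 0.0985 and 0.109 in the siRNA comparison. At an adjusted p of 0.01, 12 factors were higher in the libraries labelled CCT4 siRNA and 12 for the difference. Of all genes, 8.56% and 47.7% were then called in either direction.

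In the siRNA comparison 12 (without control siRNA replicate 1) to 24 factors were higher with 1 library left out, 13 without control siRNA replicate 2 and 14 without CCT4 siRNA replicate 1 or 3, and the median ran from 0.10 to 0.21. Of all genes, 19.7% were called there in either direction in the main fit. That share was 12.1% without control siRNA replicate 1 or 2, 12.4% and 12.6% without CCT4 siRNA replicate 1 and 3, and 22.1% without vehicle replicate 1. EIF4E2, near 0 there, turned to −0.00468 with RLE scaling, −0.0208 with upper-quartile scaling, −0.13 with library totals, −0.0048 with DESeq2, −0.00452 without a filter and −0.0128 with the experiment alone, and ran from −0.0819 to 0.0964 with 1 library left out (−0.00115, −0.00227 and −0.0715 among them). EIF4G1 ran from −0.101 to 0.0270 there, turned without CCT4 siRNA replicate 2. For the difference EEF1A1 ran from −0.193 to 0.0576 with 1 library left out, turned without vehicle replicate 3, and turned to 0.0822 with copies added. The causes were not tested.

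Deviations of replicates from their group means were correlated between the groups of each experiment. Same-numbered pairs gave −0.008, −0.031 and −0.017 in the compound experiment, where other pairs ran from −0.011 to 0.028. In the siRNA experiment same-numbered pairs gave 0.026, 0.015 and 0.014, and other pairs at most 0.001. Values this small cannot tell whether the numbers pair the samples. With a replicate block 41 factors were called with anticarin-β and 22 in the siRNA comparison, among 72.0% and 17.1% of all genes. Over the named genes, 1263 values under alternatives kept direction and side of the threshold, 61 lost the call, 17 gained it and 16 turned.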
